A study of Arabidopsis thaliana with 12 samples.

Results

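Transcripts of 5 nuclear genes that serve the chloroplast NADH dehydrogenase-like (NDH) complex were followed in wild-type Arabidopsis thaliana plants and in atc6 mutants, which lack the cytochrome c6 protein. The genes were chosen by name: they are NdhS, NdhN, PIFI, CRR21 and CRR41, each read by 1 probe that the platform's annotation assigns to that gene alone, among 692 such probes and 3439 probes in all. All 5 were found, each with a single probe, so no choice between probes was needed. The samples were total RNA of 6 wild-type (WT) and 6 atc6 plant samples, all of ecotype Columbia 0 and all grown on MS medium, a mineral medium for plant culture. The labels give no age, tissue, allele or light condition, and leave unsaid how many plants stand behind each set of 6. The samples numbered 1 and 2, 3 and 4, and 5 and 6 resembled each other (their deviations from the genotype mean correlated at 0.59 to 0.89 across probes), so each doublet was averaged and counted as 1 replicate (n = 3 per genotype). Whether doublets are separate cultures is not stated, so the p-values reflect sample-to-sample scatter that may be purely technical.

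The NDH complex of the thylakoid membrane takes electrons from reduced ferredoxin and returns them to plastoquinone, so that electrons cycle around photosystem I and a proton gradient is built without net production of NADPH. Part of its subunits is encoded in the plastid genome and part in the nucleus, and its build-up needs nuclear factors that edit the plastid ndh transcripts or assemble the stromal arm. The other known route of cyclic electron flow in plants depends on PGR5 and PGRL1. Cytochrome c6 is a haem protein which, in algae and cyanobacteria, carries electrons to photosystem I.

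Deposited values are spot intensities on a linear scale of unknown construction. Median intensities were 0.485 to 0.627 in the WT samples and 0.323 to 0.500 in atc6 replicates 3 to 6, but 4.46 and 4.52 in atc6 replicates 1 and 2, which therefore stand apart. The highest intensities in those 2 samples were only 30.1 and 31.4, against 62.0 to 100 in the others. Their values thus differ by more than a common factor, with bright probes closer to the median. Differences of the 5 members are given below with and without those 2 samples. After quantile normalization, levels are log2(normalized intensity + 0.267), where the added 0.267 damps the differences of dim probes. The gene of cytochrome c6 was not analysed here, so the genotype was not checked on its transcript. Of 11 markers of green tissue, 4 had a single-gene probe, while 0 of 6 root markers and 0 of 4 pollen and seed markers had one, so the tissue could be checked only for its green part. The green markers PSBW, PSAN, PSBY and LHCB1.5 were present in all 6 WT samples, at deposited intensities of 20.4 to 41.1, 2.07 to 2.81, 1.35 to 2.23 and 6.91 to 12.4.

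For none of the 5 NDH genes was the difference between atc6 and WT larger in size than the SD of the atc6 doublets. It exceeded the SD of the WT doublets for NdhS (-0.61 against 0.09) and CRR41 (0.29 against 0.25). In bulk RNA, fewer green cells and less of a transcript per cell cannot be told apart. Of the green markers, LHCB1.5 had an atc6 minus WT difference of 0.07, PSAN of 0.10, PSBY of 0.69 and PSBW of -1.18. Without atc6 replicates 1 and 2 these were 0.15, 0.26, 0.66 and 0.06. PSBY alone had atc6 doublets wholly above its WT doublets, while those of the other green markers overlapped. In limma, 0 of the 4 passed. In limma's test over all 3329 probes fitted, 0 of the 5 passed an adjusted p of 0.05, and across the array 0% of probes did. At an unadjusted p under 0.05, 0 of the 5 passed, against 5.02% of all probes. For 0 of the 5 did the atc6 doublets lie wholly above or below the WT doublets, which was so for 11.2% of all probes, 5.38% with atc6 below. The difference was negative for 4 of the 5 genes and for 46.1% of all probes, and its median was -0.02 over the 5 genes and 0.04 over all probes. With 3 doublets per genotype, the median half-width of a probe's 95% interval was 0.67 (log2 scale, before adjustment).

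NdhS (AT4G23890, probe 77) encodes a subunit on the electron-donor side of the complex that helps to bind ferredoxin, and was the brightest of the 5 probes. Its deposited intensity was lowest at 6.41, with a median of 8.32 and a highest value of 9.21, in the 6 WT samples. In atc6 replicates 3 to 6 it was 6.20 to 8.76, within or just below the WT range. In atc6 replicates 1 and 2, with their higher medians and lower maxima, it was 10.97 and 12.7. Thus the raw values of the 2 genotypes overlapped. After normalization the WT doublets were at 3.30, 3.46 and 3.45 on the log2 scale and the atc6 doublets at 1.77, 3.39 and 3.22. The first atc6 doublet was far below the other 5, which lay close together.

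The normalized level of NdhS was 3.41 ± 0.09 in WT and 2.79 ± 0.89 in atc6 (SD, n = 3). The difference of -0.61 ± 0.42 (SE), a 1.53-fold lower value in atc6, had a 95% interval of -1.58 to 0.36 and an adjusted p of 0.845 in limma. Without atc6 replicates 1 and 2 the difference was -0.15 ± 0.22, and -0.10 ± 0.21 where they were left out only after all samples had been normalized together. With a cyclic loess normalization in place of quantiles it was -0.26 ± 0.23. Scaled to a common median it was -0.54 ± 0.75, and with that scaling before quantile normalization it was larger, at -0.87 ± 0.56. On the values as deposited it was 0.16 ± 0.56, beside a median shift of 0.66 over all probes. Most of the NdhS difference thus rested on the doublet that stands apart.

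The rank of a probe within its own sample needs no scaling between samples. The NdhS probe stood at percentile 98.5 to 98.8 in all 6 WT samples and at percentile 98.3 to 98.7 in atc6 replicates 3 to 6. In atc6 replicates 1 and 2 it stood at percentiles 84.6 and 89.6. Other bright probes also ranked lower there. The 167 probes whose median WT percentile was above 95 had a median percentile of 97.5 to 97.6 in each WT sample and 97.1 to 97.5 in each of atc6 replicates 3 to 6, but 94.3 in both atc6 replicates 1 and 2. On the normalized scale the first atc6 doublet was below the mean of the other atc6 doublets by a median of -0.52 over these probes and by -1.53 for NdhS, and 28 of the 167, NdhS among them, were that low or lower. Among the green markers in the same comparison PSBW was at -3.72, PSAN at -0.49, LHCB1.5 at -0.26 and PSBY at 0.11. The part of those samples' make-up in the NdhS value was not tested.

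**Figure D1:**
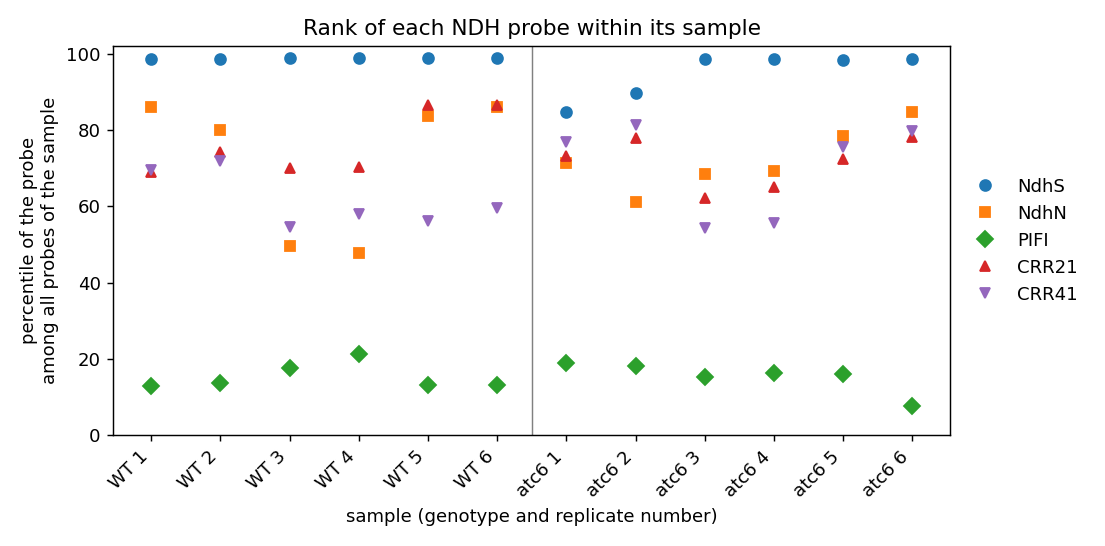
Percentile of each NDH probe among all probes of the same sample (vertical axis, 0 to 100) in the 12 samples (horizontal axis), 1 point per sample. The NdhS points lie at 98.3 or above in all but atc6 replicates 1 and 2, where they are at 84.6 and 89.6, while PIFI stays below 22 in every sample.

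NdhN (AT5G58260, probe 2514) encodes a subunit of subcomplex A, the stromal arm that also holds plastid-encoded subunits. Its deposited intensity in WT was lowest at 0.461, with a median of 1.24 and a highest value of 1.52. In atc6 replicates 3 to 6 it was 0.713 to 0.931, between the low and the high WT samples, and in atc6 replicates 1 and 2 it was 7.95 and 6.13. In WT the samples fell apart by doublet, since replicates 3 and 4 were at 0.477 and 0.461 and the other 4 at 1.24 or above. Normalized levels of the WT doublets were 1.59, 0.47 and 1.66, and those of the atc6 doublets 1.02, 1.11 and 1.54. All 3 atc6 doublets thus lay between the lowest and the highest WT doublet.

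The mean level of NdhN was 1.24 ± 0.67 in WT and 1.22 ± 0.27 in atc6 (SD, n = 3). Its difference of -0.02 ± 0.36 (SE) had a 95% interval of -0.85 to 0.81 and an adjusted p of 0.991 in limma. This interval is wide enough to hold a change of either sign, and the sign turned with single samples left out. Without atc6 replicates 1 and 2 the difference was 0.04 ± 0.38. Among WT doublets the range of NdhN was 1.196 on the log2 scale, against 0.16 for NdhS, while among atc6 doublets it was 0.51 against 1.62. So the subunit that was steady in WT was the more scattered in atc6, and the reverse held for the other. The wide atc6 range of NdhS came from the first atc6 doublet, at 1.77, while the others were at 3.39 and 3.22.

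PIFI (AT3G15840, probe 1037) encodes an ancillary stromal protein of the NDH system, known from a mutant without the rise in chlorophyll fluorescence after light is switched off. It was the dimmest of the 5 probes, with a lowest deposited intensity of 0.142, a median of 0.172 and a highest of 0.211 in WT. In atc6 it was 0.165 and 0.176 in replicates 3 and 4, and 1.201 and 1.15 in replicates 1 and 2. The samples of its last atc6 doublet differed from each other, at 0.081 in replicate 5 and 0.00559 in replicate 6. Normalized levels were -1.01, -0.63 and -1.01 in the WT doublets and -0.69, -0.84 and -1.18 in the atc6 doublets, so the genotypes overlapped. Means were -0.88 ± 0.22 and -0.90 ± 0.25 (SD, n = 3). The difference of -0.02 ± 0.24 (SE) had an adjusted p of 0.985 in limma, and its interval ran from -0.57 to 0.54. These levels are close to the floor that the added 0.267 sets, so the scale understates any difference of PIFI. Without atc6 replicates 1 and 2 the difference was -0.12 ± 0.23.

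CRR21 (AT5G55740, probe 1947) encodes a pentatricopeptide repeat protein required to edit a site in the plastid ndhD transcript, whose product is a membrane subunit of the complex. Its deposited intensity in WT was lowest at 0.818, with a median of 1.01 and a highest of 1.45. In atc6 replicates 3 to 6 it was 0.579 to 0.709, below every WT sample, and in atc6 replicates 1 and 2 it was 8.31 and 9.40. After normalization the WT doublets were at 1.19, 1.15 and 1.74 and the atc6 doublets at 1.32, 0.94 and 1.31. The raw separation of atc6 replicates 3 to 6 from WT was thus not kept: the last atc6 doublet came to lie above 2 of the 3 WT doublets. Means were 1.36 ± 0.33 in WT and 1.19 ± 0.22 in atc6 (SD, n = 3). Their difference was -0.17 ± 0.26 (SE), the interval ran from -0.76 to 0.42 and the adjusted p in limma was 0.915. Without WT replicates 5 and 6, the highest doublet, it was 0.02 ± 0.28, and without atc6 replicates 1 and 2 it was -0.25 ± 0.28.

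CRR41 (AT1G51100, probe 3942) encodes a stromal factor for the assembly of subcomplex A. In WT its deposited intensity was lowest at 0.541, with a median of 0.620 and a highest of 1.02. In atc6 replicates 3 to 6 it was 0.552 to 0.746, inside the WT range, and in atc6 replicates 1 and 2 it was 9.03 and 10.2. Normalized levels were 1.17, 0.71 and 0.76 in the WT doublets and 1.44, 0.66 and 1.39 in the atc6 doublets. Both genotypes thus held high and low doublets, and the lowest of all 6 was an atc6 doublet. The mean was 0.88 ± 0.25 in WT and 1.17 ± 0.44 in atc6 (SD, n = 3).

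The difference of CRR41 was the only positive one of the 5, at 0.29 ± 0.29 (SE), a 1.22-fold higher value in atc6. Its interval was -0.37 to 0.95 and its adjusted p 0.871 in limma. It stayed positive in all 38 alternatives, between 0.15 and 1.06, and passed in none of them. These alternatives reuse the same 12 samples and are not independent of each other. The 1.06 (± 1.06) was on the values as deposited, beside a median shift of 0.66 over all probes. The CRR41 difference was 0.15 ± 0.27 without atc6 replicates 1 and 2, and 0.17 ± 0.32 without atc6 replicates 5 and 6. It was 0.44 ± 0.33 without WT replicates 1 and 2, and 0.55 ± 0.27 (adjusted p = 0.527 in limma) without atc6 replicates 3 and 4.

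**Figure D2:**
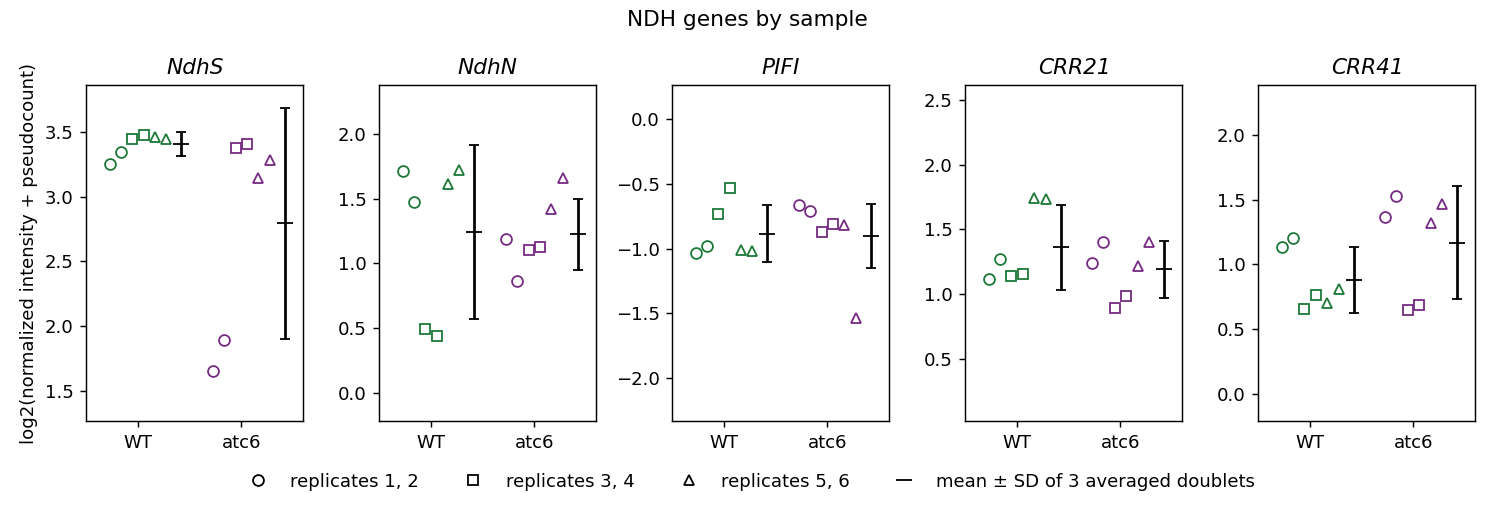
Normalized level of the 5 NDH genes in each of the 12 samples, as log2(normalized intensity + pseudocount), with symbols for the 3 doublets and a black bar for the mean ± SD of the averaged doublets. Each panel spans the same height on the log2 scale. For NdhS, atc6 replicates 1 and 2 at 1.65 and 1.89 stand below all others while the other atc6 samples lie in or near the WT range, and for the other 4 genes the genotypes overlap.

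The median gap between the samples of a doublet was 0.06 for NdhS, 0.17 for NdhN, 0.06 for PIFI, 0.12 for CRR21 and 0.11 for CRR41 on the log2 scale. The range over the 3 doublets of a genotype was 0.38 or more for 4 of the genes in both genotypes, and 0.16 in WT and 1.62 in atc6 for NdhS. For PIFI the widest gap between repeats, 0.72 in atc6 replicates 5 and 6, was larger than the range over its doublets, which was 0.38 in WT and 0.49 in atc6.

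Taken by doublet number, the differences of the 5 genes did not run together. In doublet 1 (replicates 1 and 2 of each genotype) atc6 minus WT was -1.53 for NdhS and -0.57 for NdhN, and 0.32, 0.13 and 0.28 for PIFI, CRR21 and CRR41. In doublet 2 it was -0.07, 0.64, -0.21, -0.21 and -0.04 for the genes in that order. In doublet 3 it was -0.24, -0.13, -0.16, -0.43 and 0.63. NdhS alone had the same sign in all 3.

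The structural subunits were then set against the factors, as the mean level of NdhS and NdhN minus the mean level of CRR21 and CRR41 in each doublet. Because probes differ in how brightly they report a transcript, only the change of this quantity between samples can be read, not its size. It was 1.26, 1.04 and 1.31 in the WT doublets, close together, and 0.01, 1.45 and 1.02 in the atc6 doublets, of which the first was far below and the second above every WT doublet. Means were 1.205 ± 0.15 in WT and 0.83 ± 0.74 in atc6 (SD, n = 3), a difference of -0.38 that was within the spread of the atc6 doublets and for which no test was made.

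The mean of the subunits alone was 2.32 ± 0.32 in WT and 2.01 ± 0.53 in atc6, a difference of -0.31. For the factors it was 1.12 ± 0.17 and 1.18 ± 0.33, a difference of 0.06. Without atc6 replicates 1 and 2 the difference of subunits minus factors was -0.0061, and 0.03 where these replicates were left out after normalization. It was thus near 0 without the doublet in which NdhS was low, and larger, at -0.66, without atc6 replicates 3 and 4. Within the classes, NdhS minus NdhN was 2.17 ± 0.72 in WT and 1.57 ± 0.77 in atc6, and CRR21 minus CRR41 was 0.48 ± 0.48 and 0.02 ± 0.22 (SD, n = 3), without a test.

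**Figure D3:**
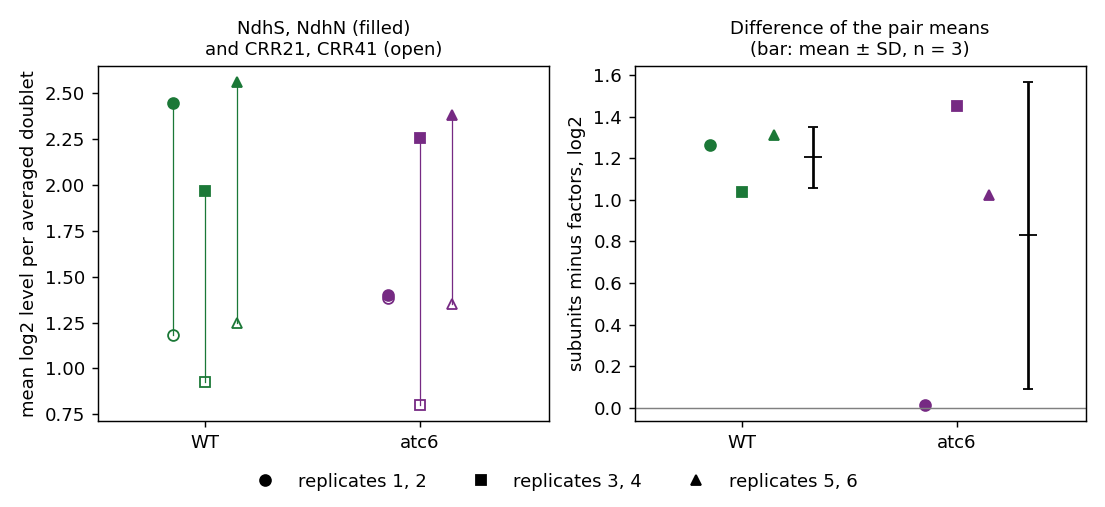
Left, mean log2 level of the subunit genes NdhS and NdhN (filled) and of the factor genes CRR21 and CRR41 (open) in each averaged doublet, joined by a line. Right, the difference of these means per doublet, with mean ± SD (n = 3): all doublets lie between 1.02 and 1.45 except the first atc6 doublet at 0.01.

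Few other genes of the pathway had a probe of their own. The 45 nuclear genes listed were for the NDH complex, its assembly, the processing and editing of its transcripts, the other cyclic route, and ferredoxin and its reductase. Of these 45, 7 did, and 0 of the 7 passed in either direction. Beside the members these were CRR27 and OTP85. CRR27 (Cpn60beta4, AT1G26230), a chaperonin subunit needed to fold the plastid-encoded NdhH, was at 0.03, -0.11 and -0.00276 in the WT doublets and at -0.09, -0.34 and -0.21 in the atc6 doublets. These overlapped only between the lowest WT and the highest atc6 doublet. Its difference was -0.19 ± 0.21 (SE), with an adjusted p of 0.891 in limma.

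OTP85 (AT2G02980), which like CRR21 is required to edit a site in ndhD, was at -0.03, -0.30 and -0.32 in the WT doublets and at 0.07, -0.38 and 0.17 in the atc6 doublets. The genotypes overlapped, and the difference of 0.17 ± 0.24 (SE) had an adjusted p of 0.906 in limma. Thus the editing factors differed in sign, at -0.17 for CRR21 and 0.17 for OTP85, and so did the assembly factors, at 0.29 for CRR41 and -0.19 for CRR27. None of the listed subunits of subcomplex B (5 genes) or of the lumen subcomplex (5), nor PGR5, PGRL1A and PGRL1B, had a single-gene probe, so these were not analysed here.

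Patterns most like those of the members were sought among 610 single-gene probes with all values above 0, by the root mean square difference of mean-centred log2 levels over the 6 averaged doublets. For NdhS the nearest were AT3G25680 (0.119) and AT5G50350 (0.136), against a median of 0.699 over all candidates. The NdhS pattern was mainly its low first atc6 doublet, so nearness to it mainly reflects a low value in that doublet. For NdhN the nearest were AT1G51110 (0.133) and AT5G66780 (0.195). For PIFI they were AT4G02040 (0.103) and SECE1 (0.116), which encodes a subunit of the thylakoid Sec translocon. For CRR21 they were AT1G62780 (0.125) and AT3G15900 (0.125), and for CRR41 AT3G56130 (0.0762) and AT2G28755 (0.102). No member was among the nearest of another member. Between members this distance was smallest for PIFI and CRR21, at 0.359, and largest for NdhS and CRR41, at 0.857. The median distance to all candidates was 0.370 for PIFI, 0.397 for CRR21 and 0.426 for CRR41. The closest pair, PIFI and CRR21, was thus about as far apart as a typical probe is from either. For NdhN the median over all candidates was 0.532. Its distances to CRR21 (0.362) and CRR41 (0.445) were below that median, and those to PIFI (0.596) and NdhS (0.679) above it.

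**Figure D4:**
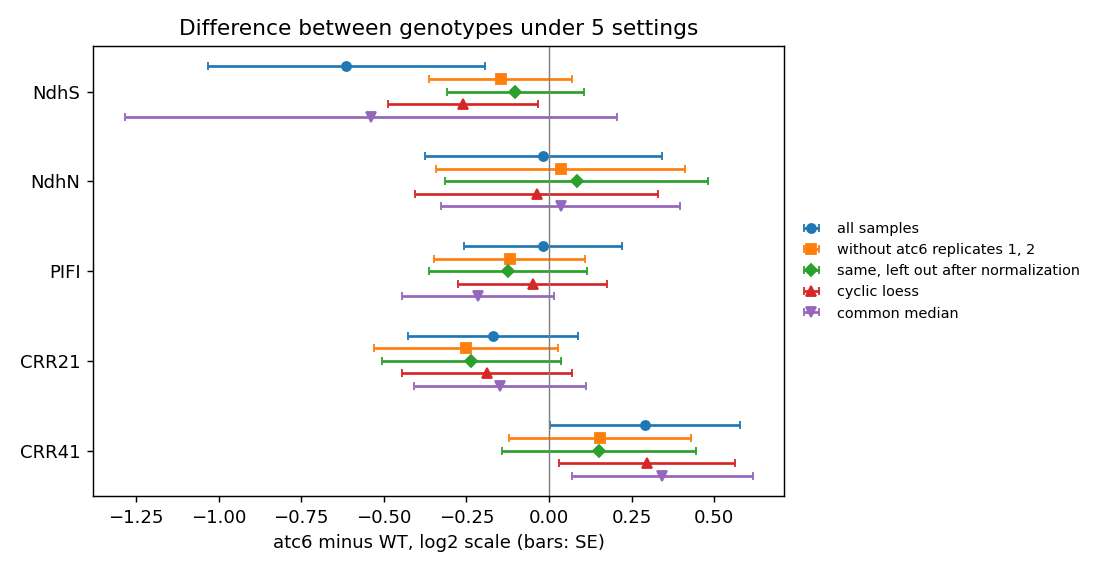
Difference of atc6 minus WT for each NDH gene on the log2 scale (horizontal axis, bars are SE) under 5 settings of samples and normalization. NdhS is at -0.61 with all samples and at -0.15 without atc6 replicates 1 and 2. It is at -0.26 with cyclic loess and -0.54 with a common median. The other 4 genes stay within 0.35 of 0 in these settings.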

How the data were processed

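The deposited table holds array intensities on a linear scale. This unit was read from the values, since the sources used here do not give the authors' scanner, background correction or scaling. Probes at 0 in all samples (110 of 3439) were left out, and the rest quantile-normalized together, because sample medians differed. The pseudocount of 0.267 is the 10th percentile of positive normalized values. Doublets were averaged on the log2 scale and compared by a two-sided moderated test (limma 3.58.1, functions lmFit and eBayes; R 4.3.3) without a block, with Benjamini-Hochberg adjustment over 3329 probes. The fit was tested on simulated data. The number of arrays limits the precision. Gene names come from an annotation of the platform that may be outdated; 690 of its 692 single-gene probes were matched by gene ID to TAIR10.1.

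The named genes are the members, every measured gene of the pathway and marker lists, and for each member the 2 probes nearest in pattern. Members and lists were chosen with earlier results of these data known.

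Same-numbered WT and atc6 samples deviated together from their genotype means (correlations of 0.11 to 0.30 across probes, each above 0.1), so a blocked fit was added as an alternative, while the reported values come from the unblocked one. What the number stands for is unlabelled, and for averaged doublets the correlations were 0.07, 0.14 and 0.24. The fit with the replicate block changed no call of a member: NdhS was at -0.61 ± 0.35 (SE) with an adjusted p of 0.819 in limma.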

Additional observations from a re-analysis of the deposited data

Results flagged for a closer look

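The PIFI value of atc6 replicate 6 stood apart from the other atc6 samples. Its gap to the nearest of them was 0.759 of the whole range of the 6 atc6 samples on the normalized log2 scale. This is above the critical value of Dixon's test, which chance passes in about 5% of groups of 6 independent values. The 6 samples form 3 doublets, so that rate need not hold for them. The deposited intensity was 0.00559 there and 0.081 in replicate 5, its repeat. Without atc6 replicate 6 the PIFI difference turned from -0.02 to 0.10.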

How the results depend on the processing

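No member passed in any of the alternatives run, and the lowest adjusted p of a member in limma, for NdhS, was 0.526 with averaged doublets and 0.197 with all samples entered separately in a block by sample number. The number of probes changed, 0 of 3329 with all samples averaged by doublet, was 1 with each of 3 settings, namely a lower pseudocount (1st percentile), a robust prior with trend, and doublets as random block. It was 99 with 12 samples entered separately and 55 with the replicate block by sample number, which both treat repeats as independent, 0 with the replicate block by doublet number, and between 0 and 2 when any sample or doublet was dropped (2 without atc6 replicates 3 and 4, also where they were left out after normalization). Without any normalization, with a median shift of 0.66 over all probes, NdhS was at 0.16, NdhN at 0.73, PIFI at 0.43 and CRR21 at 0.57, all of the other sign. NdhN was at 0.035 with a common median and at 0.20 without replicates 1 and 2 of both genotypes, where the subunits minus factors difference was 0.024. With 1 sample or 1 doublet left out before normalization, NdhN ranged from -0.40 to 0.20, PIFI from -0.14 to 0.12, CRR21 from -0.27 to 0.019, NdhS from -0.85 to -0.15 and subunits minus factors from -0.66 to -0.0061. Leaving a doublet out after all samples were normalized together was chosen after seeing the data. There NdhS ranged from -0.91 to -0.10, and NdhN was at 0.16 without WT doublet 1, 0.19 without WT doublet 3, 0.083 without atc6 doublet 1 and 0.040 without atc6 doublet 2. PIFI was at 0.11 without WT doublet 2 and 0.12 without atc6 doublet 3, CRR21 at 0.020 without WT doublet 3, and subunits minus factors at 0.033 without atc6 doublet 1. The cause of these changes was not tested. Each member difference that turned was smaller than its SE, and no SE was computed for subunits minus factors. PIFI was not in the fit without the dimmest 25% of probes. Each member had 1 single-gene probe, so the alternative with other probes was not run.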
